A study of Mus musculus with 62 samples.

Results

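Hippocampi of wild-type mice aged 12 months were compared with those of wild-type mice aged 6 months, using 6 of the 62 libraries in the series. The 6 libraries were taken by their labels, with earlier results of these data known. They are the long-RNA libraries of the C57BL/6J controls (called WT), 3 mice at each age. Each library holds RNA of the hippocampi from both hemispheres of 1 mouse, fragmented and depleted of ribosomal RNA before sequencing. These mice carry no transgene and received no treatment named in the labels. Further sets are used for reference: 2 WT long-RNA libraries at 3 months, 3 libraries each at 3, 6 and 12 months from APP NL-G-F mice (called APP), which carry a humanised App allele with familial Alzheimer mutations, and the 6 short-RNA libraries of the WT mice at the same ages. The labels do not say whether mice shared a litter, cage or day, so p-values measure only the spread between mice. For genes this spread was pooled over all 17 mouse long-RNA libraries in 6 groups (11 residual degrees of freedom). It therefore includes the APP mice and the 3-month mice, not only the 6 compared mice.

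The hippocampus forms new episodic and spatial memories. In rodents it keeps making granule neurons in the dentate gyrus into adult life, at a pace that declines with age. Ageing of the rodent brain is also known for rising expression of complement and antigen-presentation genes in glia and for loss of precursor cells, changes that are usually described over longer spans than the one compared here. In whole tissue, fewer cells of a type and less RNA per cell cannot be told apart.

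Gene levels are given as TPM, a length-normalised abundance that sums to the same total in each library, divided by a median-of-ratios size factor per library (scaled TPM). Differences are 12 minus 6 months on the log2(scaled TPM + 1) scale, on which differences of weakly expressed genes appear smaller, with a 95% interval from limma. Genes with a limma p below 0.05 after Benjamini-Hochberg adjustment over all genes were counted as called. The 6 libraries carried protein-coding shares of 26.6%, 26.9% and 28.5% of TPM at 6 months and 30.9%, 29.8% and 37.5% at 12 months. Their relative depth ranged from 1.42 to 1.99, as the ratio of deposited Coverage to FPKM; the number of reads is unknown. Ddx3y, a Y-linked gene, was present in all 6 libraries, at 28.03, 24.7 and 24.5 at 6 months and 27.2, 23.7 and 18.8 at 12 months. Xist, the X-inactivation RNA of female cells, was below the expression filter (a mean of 1 TPM over the 6 libraries, as deposited), at 0.215 to 0.438 TPM. The 2 WT libraries at 3 months showed the opposite, with Xist at 102 and 110 TPM, so their values below differ from the others in both age and sex.

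No gene was called between 6 and 12 months. Of 17082 genes tested, 0 (0%) passed, and the lowest adjusted p was 0.266. At an unadjusted p below 0.05, 553 genes (3.24%) were higher and 644 (3.77%) lower at 12 months, 1197 (7.01%) together. In 1049 genes (6.14%) all 3 values at 12 months lay above all 3 at 6 months, and in 1058 (6.19%) they lay below, 12.3% in all. The median difference over all genes was 0.0014. A log2 difference above 1 in size was seen in 78 genes in the higher and 104 in the lower direction, 1.07% of those tested. The median half-width of the 95% interval was 0.39, and 96.1% of genes had a half-width below 1, the size of a doubling. In the same fit, leaving out 12-month replicate 1 gave 4 called genes and leaving out 6-month replicate 1 gave 1, while leaving out each of the other 4 gave 0. Each WT age difference given below for a single gene is therefore one that did not pass the test.

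**Figure D1:**
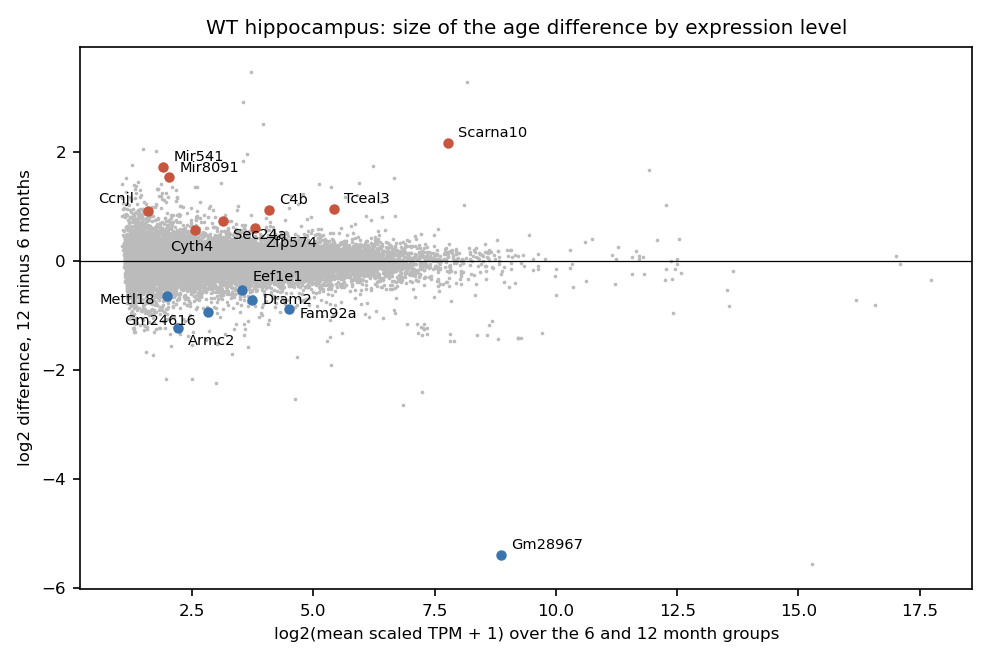
Each point is 1 of the 17082 genes tested; the x axis is log2 of the mean scaled TPM + 1 over the 6 and 12 month groups and the y axis is the log2 difference, 12 minus 6 months. Named genes are red where higher and blue where lower at 12 months; most points lie near 0 and Gm28967 lies far below them at -5.40.

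The protein-coding genes of lowest p in the higher direction were Sec24a, Ccnjl, Tceal3, Cyth4 and Zfp574. Sec24a, a cargo-binding subunit of the COPII coat that carries proteins out of the endoplasmic reticulum, had scaled TPM of 4.49, 5.87 and 6.37 at 6 months and 9.81, 9.10 and 10.96 at 12 months. The 2 groups did not overlap, and the difference was 0.74 (95% interval 0.47 to 1.01, limma adjusted p = 0.266). Ccnjl, a cyclin J-like gene, had 1.35, 1.08 and 0.82 at 6 months and 2.81, 2.80 and 3.12 at 12 months, again without overlap, a difference of 0.92; its 6-month mean of deposited TPM lay below 1, so it passed the filter only through the 12-month group. Tceal3, of the transcription elongation factor A-like family on the X chromosome, had 34.2, 31.2 and 20.1 at 6 months and 52.8, 61.02 and 50.7 at 12 months, with a difference of 0.95 (95% interval 0.54 to 1.36, limma adjusted p = 0.287). Cyth4, a guanine nucleotide exchange factor for Arf GTPases with high expression in immune cells, had 3.72, 3.96 and 3.54 at 6 months and 5.98, 5.74 and 6.36 at 12 months and a difference of 0.57 (95% interval 0.31 to 0.83). Zfp574, a zinc finger protein, had 10.3, 9.42 and 9.96 at 6 months and 15.2, 13.6 and 18.4 at 12 months, a difference of 0.61 (95% interval 0.33 to 0.89). In all 5 genes both 3-month libraries also lay above the 3 libraries at 6 months, at 10.7 and 9.80 for Sec24a, 3.98 and 4.38 for Ccnjl, 55.6 and 41.3 for Tceal3, 6.12 and 5.49 for Cyth4 and 16.4 and 17.5 for Zfp574; the 6-month libraries are shared by the 2 comparisons.

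Among lower genes the lowest p belonged to Fam92a, Dram2, Mettl18, Eef1e1 and Armc2, and in each the groups did not overlap. Fam92a, a BAR-domain protein linked to ciliogenesis, had 37.02, 22.1 and 26.8 at 6 months and 14.9, 15.1 and 14.1 at 12 months, a difference of -0.88 (95% interval -1.28 to -0.49, limma adjusted p = 0.371). Dram2, a lysosomal membrane protein that takes part in autophagy, had 16.5, 17.1 and 12.8 at 6 months and 10.8, 8.11 and 8.41 at 12 months and a difference of -0.71 (95% interval -1.04 to -0.38). Mettl18, a histidine methyltransferase acting on a ribosomal protein, had 3.80, 4.11 and 3.48 at 6 months and 2.23, 2.12 and 1.85 at 12 months and a difference of -0.64 (95% interval -0.96 to -0.33). Eef1e1, a scaffold protein of the multi-tRNA synthetase complex, had 13.8, 13.5 and 10.8 at 6 months and 8.65, 7.80 and 9.01 at 12 months and a difference of -0.52 (95% interval -0.78 to -0.27). Armc2, an armadillo-repeat protein needed for the sperm flagellum, had 4.09, 7.27 and 5.02 at 6 months and 2.40, 1.22 and 1.57 at 12 months, the widest gap of the 5 at -1.24 (95% interval -1.85 to -0.62, limma adjusted p = 0.461). In the 3-month libraries, Fam92a stood at 27.6 and 20.9, Dram2 at 10.4 and 11.9, Mettl18 at 2.43 and 3.69, Eef1e1 at 9.53 and 9.58 and Armc2 at 4.62 and 6.08.

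**Figure D2:**
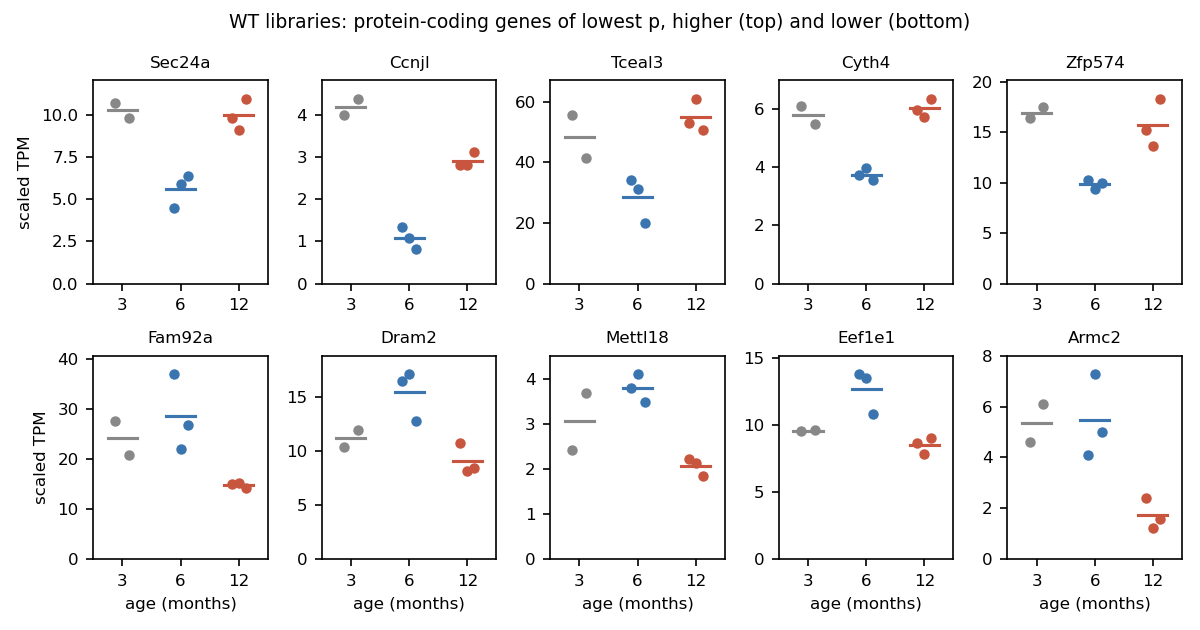
Scaled TPM (y axis, from 0) of the 10 protein-coding genes of lowest p in each WT long-RNA library, by age in months on the x axis; points are libraries and lines are group means. The 3 libraries at 12 months lie above those at 6 months in the top row and below them in the bottom row, while the 2 libraries at 3 months lie above those at 6 months for all 5 genes of the top row. Ccnjl passed the filter only through the 12-month group, so its place here is a description.

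The small-RNA precursors Mir541 and Mir8091 were both chosen after their values were seen. The long-RNA libraries measure RNA over the hairpin locus, not the mature miRNA, but the mature sequences are shown because the hairpin loci are short and these are the RNAs they are named for. They are from RefSeq (GRCm38.p6), with the seed, bases 2 to 8, in capitals; the 3 seeds differ.
mmu-miR-541-5p: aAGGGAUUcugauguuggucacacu
mmu-miR-541-3p: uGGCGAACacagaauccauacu
mmu-miR-8091: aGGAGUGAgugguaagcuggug
The Mir541 hairpin lies at chr12:109742409-109742498, plus strand (GRCm38), inside the imprinted Dlk1-Dio3 region and within the noncoding gene Mirg. Its scaled TPM was 0.286, 0.911 and 1.09 at 6 months and 5.19, 4.38 and 4.59 at 12 months, and 5.19 and 8.71 at 3 months; the difference between 12 and 6 months was 1.73. Mir8091, at chr19:41588651-41588789, plus strand, had 0.613, 1.92 and 0.747 at 6 months and 4.25, 4.15 and 6.66 at 12 months, a difference of 1.55. Both precursors had all 3 values at 12 months above those at 6 months. Their 6-month means of deposited TPM lay below the filter of 1, so both passed it only through the 12-month group, and these differences are a description. Other transcripts of the Dlk1-Dio3 region, chosen after their values were seen, had group means that differed less or went the other way: Meg3 had 220.5 at 6 and 266 at 12 months (difference 0.22), Mirg had 16.2 and 18.4 (0.16), and Mir382 had 11.1 and 4.86 (-1.34).

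Gene groups were described by their counts and median, beside the median of 0.0014 over all genes tested. In the innate immune and glial lists the gene of lowest p was C4b, a complement component made by astrocytes and microglia. C4b had 9.89, 12.5 and 9.54 at 6 months and 20.6, 22.6 and 19.9 at 12 months, and 7.15 and 6.48 at 3 months; the difference was 0.93 (95% interval 0.27 to 1.58, limma adjusted p = 0.613). The 2 ages did not overlap, and in APP mice the corresponding difference was 1.96. The test of APP minus WT gave 1.03 (95% interval 0.10 to 1.96, limma adjusted p = 0.437). Across the complement list, 9 of 17 genes were tested, 0 were called and the median was 0.18. Gfap, the intermediate filament of astrocytes, chosen after its values were seen, had 133, 115 and 148 at 6 months and 129, 123 and 135 at 12 months and a difference of -0.03 (95% interval -0.67 to 0.62), and its direction changed with the scaling.

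MHC class II genes, which present extracellular peptides, were measured near the filter at 6 months. Cd74, the invariant chain, had 0.92, 0.911 and 0.608 at 6 months and 1.56, 2.53 and 3.30 at 12 months, and H2-Aa had 0.775, 0.299 and 1.28 at 6 months and 1.68, 2.64 and 2.45 at 12 months. Both passed the filter only through the 12-month group, so no test is given for them. For class I, 7 of 14 were tested, 6 positive, with a median of 0.23. Microglial identity genes had a median of 0.05 over 20 of 20 tested, and P2ry12, the purinergic receptor of resting microglia, had 28.4, 24.04 and 24.4 at 6 months and 22.4, 19.3 and 17.03 at 12 months, a difference of -0.37 (95% interval -0.73 to -0.01). Genes of plaque-associated glia had a median of 0.07 over 11 of 20 tested, against 1.25 in APP mice over the same ages. Of 16 listed T and B lymphocyte genes, 11 were found in the files, and 0 of these passed the filter.

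**Figure D3:**
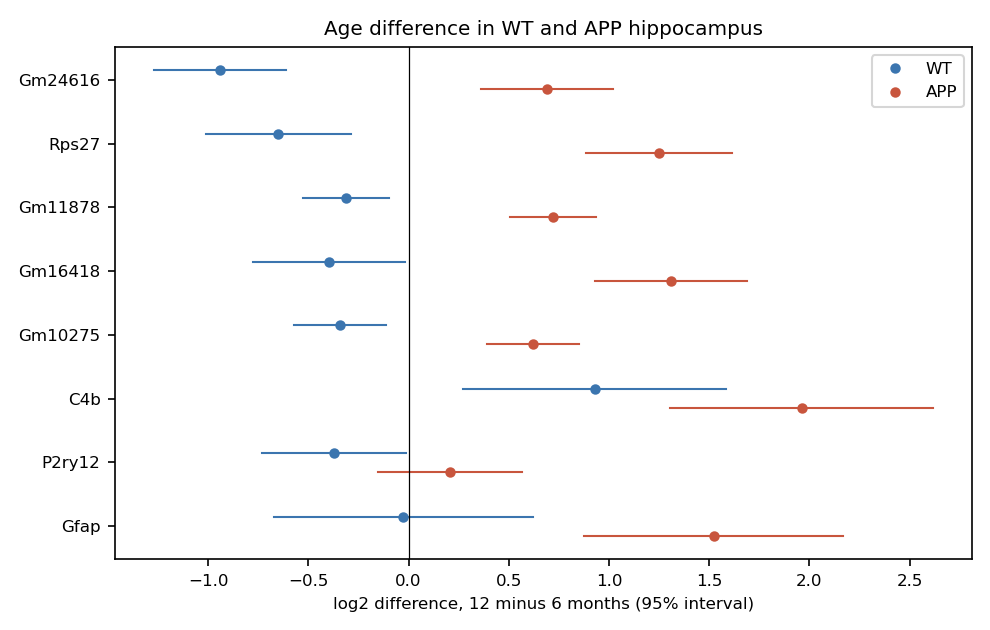
Log2 difference between 12 and 6 months in WT (blue) and APP (red) hippocampus, with 95% intervals as lines, for the 5 genes whose APP minus WT difference passed the test and for the glial genes C4b, P2ry12 and Gfap. In the first 5 genes the WT values lie below 0 and the APP values above it; Gfap lies at -0.03 in WT.

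The adult neurogenesis list had 17 of 23 members tested, 11 negative and 6 positive, with a median of -0.16, which was -0.02 relative to all genes without 12-month replicate 1. Stmn2, a tubulin-binding protein of growing neurites, had 134, 120.4 and 133 at 6 months and 119, 107 and 91.95 at 12 months, a difference of -0.29 (95% interval -0.53 to -0.05), and its groups did not overlap. Dpysl5, a collapsin response mediator of developing neurons, had 5.96, 4.72 and 5.85 at 6 months and 2.97, 4.33 and 4.57 at 12 months and -0.40 (95% interval -0.83 to 0.03). Its values at 3 months were 6.49 and 8.84. Sox11, a transcription factor of neuroblasts, had 5.26, 5.17 and 7.01 at 6 months and 4.12, 5.99 and 4.25 at 12 months, 9.83 and 9.85 at 3 months, and a difference of -0.24 (95% interval -0.58 to 0.10). Among oligodendrocyte precursor genes (15 of 16 tested, median -0.10; relative to all genes -0.03 without 6-month replicate 1 and -0.15 without 6-month replicate 2), Gpr17, a receptor of precursors committed to myelination, had 7.14, 7.20 and 9.22 at 6 months and 6.21, 6.71 and 4.89 at 12 months and a difference of -0.35 (95% interval -0.76 to 0.06), while the 3-month libraries held 16.3 and 19.3. Myelin genes had a median of 0.01.

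All 14 pan-neuronal genes tested had positive differences, with a median of 0.15, and 18 of 20 synaptic vesicle genes did, with a median of 0.13; 8594 of all 17082 genes had a positive difference. Leaving out 1 library gave medians, relative to all genes, of 0.12 to 0.19 for the first list and 0.07 to 0.18 for the second. The positive pan-neuronal genes fell to 11 of 14 without 12-month replicate 2 and to 12 without 6-month replicate 2. For synaptic vesicle genes the positive count ran from 16 to 20 of 20. Nefm, a neurofilament subunit, had 38.1, 30.7 and 27.3 at 6 months and 34.98, 47.9 and 42.5 at 12 months, a difference of 0.37 (95% interval 0.02 to 0.72). Sv2a, a vesicle glycoprotein, had 87.9, 91.1 and 101 at 6 months and 102, 111 and 112 at 12 months and 0.21 (95% interval 0.00 to 0.42). The glutamate receptor list was mixed, with 14 of 21 genes positive, 7 negative and a median of 0.07. Without 6-month replicate 1, 10 were positive and 11 negative. Grm2, a metabotropic receptor of this list, had 9.10, 7.24 and 8.72 at 6 months and 10.1, 12.3 and 10.9 at 12 months. Its difference was 0.37 (95% interval 0.04 to 0.71). In the 3-month libraries Grm2 stood at 14.6 and 17.6, above both older groups.

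Among 22 immediate-early genes, 12 were negative, with a median of -0.06. In 4 of them all 12-month values lay below all 6-month values, against the 6.19% of all genes, and in 1 they lay above, against 6.14%. Without 6-month replicate 3, 11 were positive and 10 negative, with a median of 0.0084; that library held the highest values of the 3 genes named next. Fos, a subunit of AP-1, had 7.97, 5.88 and 14.1 at 6 months and 5.80, 4.82 and 4.55 at 12 months, with a difference of -0.69 (95% interval -1.20 to -0.19). Btg2, an antiproliferative gene induced by activity, had 7.17, 8.48 and 12.4 at 6 months and 5.98, 5.10 and 6.15 at 12 months and -0.59 (95% interval -1.01 to -0.17). Npas4, an activity-dependent transcription factor of neurons, had 3.55, 3.81 and 6.20 at 6 months and 3.44, 0.869 and 3.28 at 12 months and -0.72 (95% interval -1.43 to -0.01). Of 20 circadian clock genes, 15 were positive, with a median of 0.14, or 0.07 to 0.21 relative to all genes without 1 library. Cry2, a clock repressor, had 29.4, 25.9 and 32.3 at 6 months and 33.2, 34.8 and 41.8 at 12 months and 0.32 (95% interval 0.04 to 0.59); Nr1d1, a nuclear receptor repressing Bmal1, had 28.4, 23.8 and 25.2 at 6 months and 29.2, 31.2 and 34.9 at 12 months and 0.29 (95% interval 0.01 to 0.57). No source used here gives the hour of tissue collection, and its part in these values was not tested.

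Heat shock genes are the classic targets of Hsf1, the transcription factor that the series targets in its cell experiments. Hsf1 itself had 11.3, 9.77 and 12.1 at 6 months and 11.8, 11.1 and 14.8 at 12 months, a difference of 0.16 (95% interval -0.15 to 0.48). The list of 20 chaperone and heat shock genes includes Hsf1 and Hsf2 themselves and endoplasmic reticulum chaperones such as Hsp90b1 and Hspa5. It is therefore not limited to Hsf1 targets. In it 16 were negative, with a median of -0.13, and 3 had all values lower at 12 months, against the 6.19% of all genes. Relative to all genes the list median was -0.07 without 6-month replicate 1 and -0.25 without 6-month replicate 3. Hspa8, the constitutive cytosolic Hsp70, had 635, 525 and 488 at 6 months and 462, 393 and 403 at 12 months, a difference of -0.38 (95% interval -0.69 to -0.08). Hspd1, the mitochondrial chaperonin Hsp60, had 73.4, 74.4 and 65.1 at 6 months and 58.8, 64.6 and 53.2 at 12 months and -0.27 (95% interval -0.48 to -0.06), and Hsp90b1, the Hsp90 of the endoplasmic reticulum, had 122, 142 and 111 at 6 months and 104, 103 and 95.2 at 12 months and -0.30 (95% interval -0.56 to -0.04). The Hspd1 promoter is shown because its window holds the core heat shock motif GAANNTTC, in capitals (RefSeq, GRCm38.p6, chr1:55087883-55088182, minus strand; this is the window of 2 for Hspd1 that holds a match).
Hspd1 promoter: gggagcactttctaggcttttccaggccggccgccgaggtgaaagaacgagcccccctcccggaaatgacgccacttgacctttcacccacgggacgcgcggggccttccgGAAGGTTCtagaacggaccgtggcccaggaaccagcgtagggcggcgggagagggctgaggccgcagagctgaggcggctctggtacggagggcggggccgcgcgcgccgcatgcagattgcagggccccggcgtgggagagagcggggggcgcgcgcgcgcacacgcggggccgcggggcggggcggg
The motif is its own reverse complement, so each match counts for both strands. It was in 9 of 20 promoter windows of 15 genes of this list matched by symbol and in 7.86% of 32851 windows of all genes. The 1 window of Hsp90b1 held no match, and Hspa8 was not among the 15 genes.

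In 93 protein-coding ribosomal protein genes, 76 differences were negative, with a median of -0.18, and 17 had all values lower at 12 months, against the 6.19% of all genes. The median relative to all genes was -0.08 without 6-month replicate 1 and -0.33 without 6-month replicate 3. Rps27, a component of the small subunit, had 15.3, 15.3 and 10.00 at 6 months and 7.32, 9.01 and 8.08 at 12 months and a difference of -0.65 (95% interval -1.01 to -0.29). Rpl19, of the large subunit, had 58.3, 47.1 and 45.6 at 6 months and 32.6, 41.2 and 28.6 at 12 months and -0.56 (95% interval -0.94 to -0.17). In the list of 25 nuclear respiratory chain genes, 17 were negative, with a median of -0.07. Without 6-month replicate 1, 12 were positive and 13 negative, with a median of -0.01 relative to all genes; this was -0.15 without 6-month replicate 3. Sdhb, the iron-sulphur subunit of succinate dehydrogenase, had 75.3, 65.5 and 73.95 at 6 months and 60.9, 54.2 and 53.7 at 12 months and -0.34 (95% interval -0.58 to -0.10). Of 25 proteasome genes 23 were negative, with a median of -0.09. Without 6-month replicate 1 or without 12-month replicate 3, 17 were negative and the median relative to all genes was -0.05, and over the other libraries left out it reached -0.14. Processed pseudogenes had 847 of 1368 negative, with a median of -0.08. How reads were divided between pseudogenes and their parent genes was not tested. Without 6-month replicate 1, 661 were positive and 733 negative, with a median of -0.03 relative to all genes, and it was -0.14 without 6-month replicate 3. In TPM as deposited and not scaled, the median difference of all genes was 0.22, and relative to it the ribosomal protein median was -0.15.

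Age differences over all coding genes were also set against base composition. Across 12575 coding genes the age difference had a Spearman correlation of 0.331 with GC percent of the longest transcript, a description across genes, which are not independent replicates. The median difference ran from -0.08 in the lowest to 0.10 in the highest of 4 equal bins of GC. By library, against the 6-month mean, medians of the highest bin were 0.06, -0.07 and 0.004 at 6 months. They were 0.04, 0.12 and 0.14 at 12 months, so the ages overlapped. With transcript length the Spearman correlation was 0.123. The part of GC and length in the differences of the lists above was not tested.

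Genes of tissues outside the hippocampus, the choroid plexus and the pituitary, were also described. All 12 choroid plexus genes were lower, with a median of -0.46, and their summed scaled TPM was 1444, 1769.9 and 1732 at 6 months and 608, 1696 and 1321 at 12 months, so that 12-month mouse 1 stood lowest. Without that library the median of the list was -0.13 against all genes. The pituitary hormone genes Prl and Gh were listed at 0 or near it in all 3 libraries at 6 months. At 12 months Prl stood at 5.05, 1.61 and 3.96 and Gh at 11.4, 0.567 and 2.40. Both passed the filter only through the 12-month group. The other hormone genes listed, Pomc, Tshb, Lhb and Cga, lay below the filter. Values of Pomc, Tshb and Lhb overlapped between the ages, and Cga was 0 in all 6 libraries. The part of dissection in these values was not tested.

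**Figure D4:**
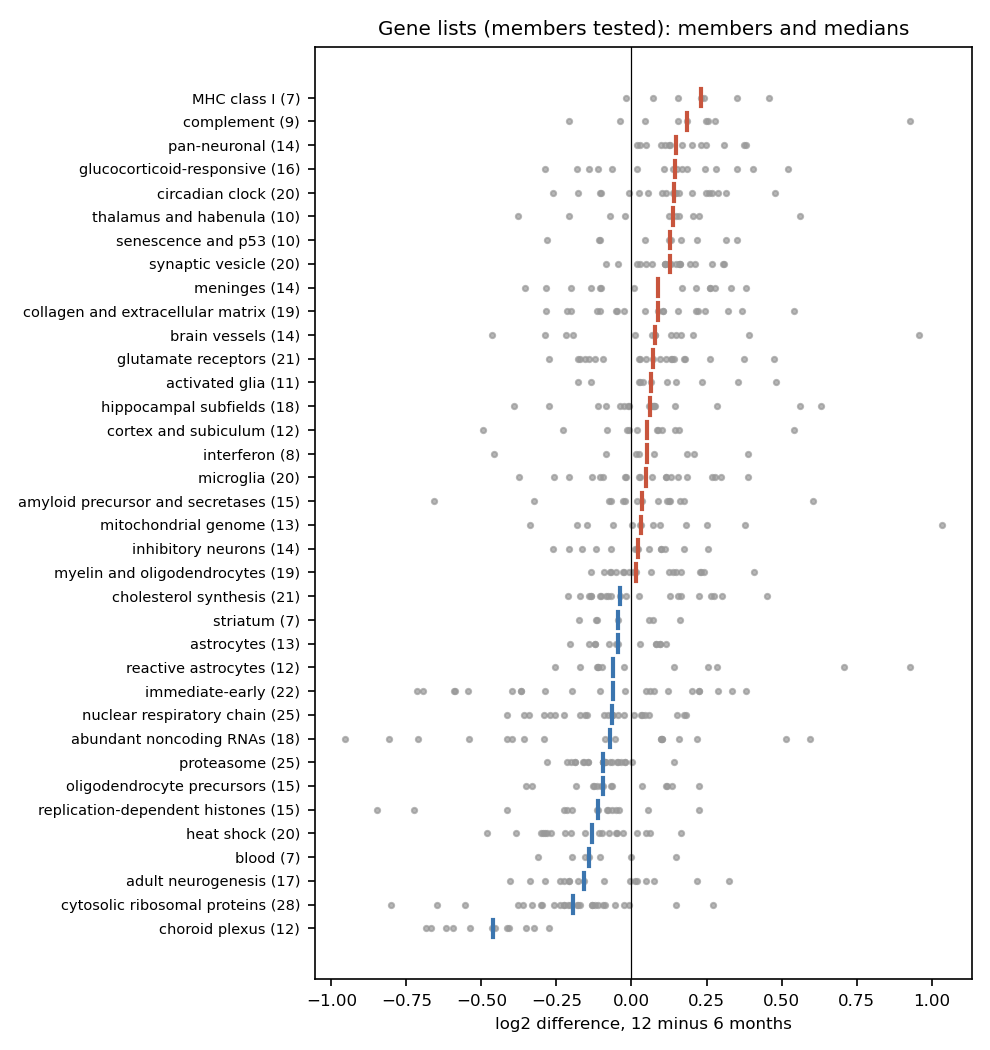
Log2 differences of the members of each list (grey points) and their median (red above 0, blue below 0), with the number of members tested in brackets; lists with fewer than 5 tested members are left out. Most medians lie within 0.2 of 0, and the choroid plexus list lies lowest at -0.46.

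Genes of amyloid precursor processing are given because the APP mice differ at this locus. App had 276, 201 and 224 at 6 months and 229, 268 and 263 at 12 months, a difference of 0.13 (95% interval -0.30 to 0.56). Ece1, a metalloprotease that can degrade amyloid beta, had 10.6, 6.82 and 8.02 at 6 months and 11.7, 13.6 and 14.5 at 12 months, a difference of 0.61 (95% interval 0.28 to 0.94, limma adjusted p = 0.499), without overlap, while the 3-month libraries held 10.9 and 14.5. Adam17, a sheddase, had 5.38, 6.93 and 7.07 at 6 months and 5.18, 4.66 and 4.92 at 12 months and -0.33 (95% interval -0.60 to -0.06). Mme, the amyloid-degrading protease neprilysin, had 4.70, 3.39 and 4.39 at 6 months and 1.43, 3.00 and 2.54 at 12 months and -0.66 (95% interval -1.27 to -0.05). Of 15 genes tested in this list, 9 were positive, with a median of 0.04.

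In the list of vessel-associated genes, Rgs5, a pericyte marker, had 15.7, 14.6 and 16.9 at 6 months and 12.7, 10.9 and 9.85 at 12 months, with a difference of -0.46 (95% interval -0.78 to -0.15). Tagln, of smooth muscle, had 1.16, 1.01 and 0.375 at 6 months and 2.68, 3.03 and 1.95 at 12 months and passed the filter only through the 12-month group. Of 14 vessel genes tested, Tagln included, 10 were positive and 4 negative, with Rgs5 the lowest. The vessel list had a median of 0.08, and 0.04 to 0.10 relative to all genes without 1 library.

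Scarna10, a small Cajal body RNA at chr6:125186359-125186683, and Gm28967, a sense intronic entry at chr6:125186361-125186641, both on the minus strand in an intron of Ncapd2, share 281 bases. They were chosen after their values were seen. The start of Scarna10 is shown because 42 bases, in capitals, are the 5′ part of it that lies outside Gm28967 (GRCm38, chr6:125186600-125186683, minus strand).
Scarna10 start: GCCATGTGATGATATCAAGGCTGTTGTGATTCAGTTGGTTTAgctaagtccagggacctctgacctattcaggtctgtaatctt
Scarna10 had 44.3, 93.8 and 109 at 6 months and 432, 321 and 303 at 12 months, and Gm28967 had 483, 1071 and 1177 at 6 months and 24.7, 15.6 and 18.1 at 12 months. Scarna10 took 8.05% to 8.46% of the summed values at 6 months and 94.3% to 95.4% at 12 months, and the sum of both was 527, 1165 and 1286 at 6 months and 457, 337 and 321 at 12 months. Over all 17 mouse long-RNA libraries this share stood below 9%, at 42.6% or above 92%, in both genotypes, so the entries cannot be told apart as separate RNAs and their single fold changes are given only as entries. In the 6 libraries alone, Gm28967 was the 1 gene called.

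**Figure D5:**
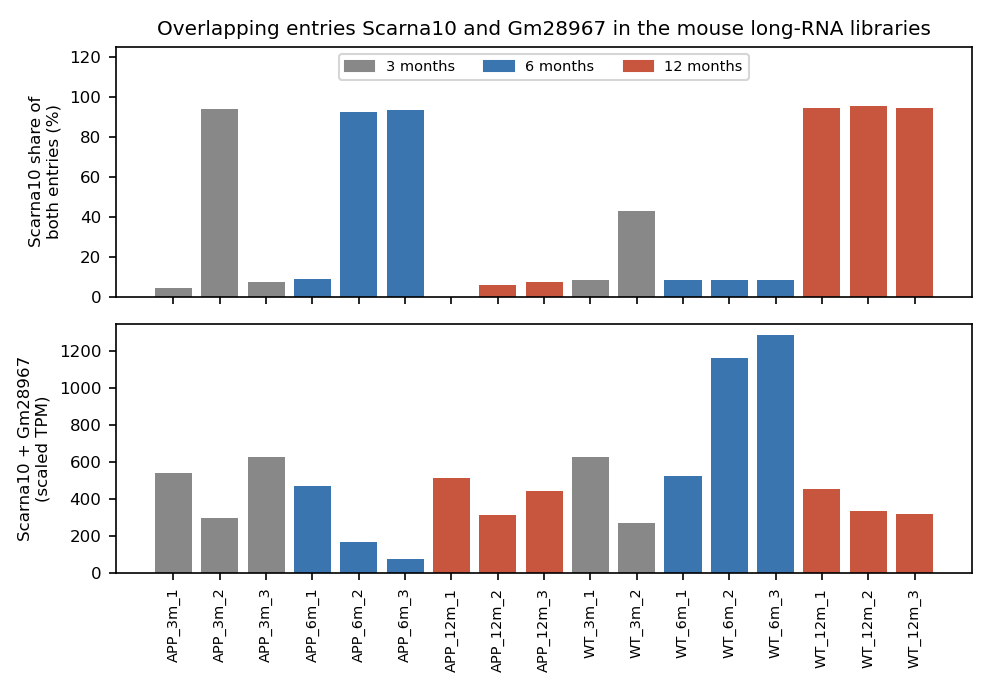
For each mouse long-RNA library, the top bars give the share (%) of the summed Scarna10 and Gm28967 values listed under Scarna10, and the bottom bars the sum in scaled TPM; colours mark age. The share is low in all 3 WT libraries at 6 months and high in all 3 at 12 months, and is 0 in 1 APP library at 12 months.

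The spliceosomal small nuclear RNAs U1 and U2 are annotated in near-identical copies. Rnu2-10, a U2 copy, had 378, 1101 and 1178 at 6 months and 325, 367 and 218 at 12 months and a difference of -1.41 (95% interval -3.06 to 0.24), and Rnu1a1, a U1 copy, had 86.3, 380.4 and 200.1 at 6 months and 83.1, 89.00 and 68.03 at 12 months and -1.23 (95% interval -3.29 to 0.83). These 2 genes were chosen after their values were seen, and reads cannot be divided between copies.

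The age difference in WT was also tested against that in APP mice, over the same libraries in 1 fit. The filter used the 6 WT libraries only, so genes below it there were not tested, whatever their level in APP mice. Cst7, Itgax and Clec7a were among those left out. Of 17082 genes, 5 (0.0293%) passed, with the APP difference above the WT difference in all 5, while 1737 (10.2%) had an unadjusted p below 0.05. The 93 protein-coding ribosomal protein genes had a median of -0.18 in WT and 0.40 in APP, and 1 of them, Rps27, passed. Rps27 was -0.65 in WT and 1.25 in APP, a difference between them of 1.90 (95% interval 1.38 to 2.41, limma adjusted p = 0.0169). The other 4 were the small nucleolar RNA Gm24616 and the pseudogenes Gm11878, Gm16418 and Gm10275, entries of short or repeated sequence whose reads the authors' counting may have divided. Leaving out single libraries gave 0 to 37 called genes, with 0 without APP replicate 3 at 6 months, APP replicate 2 at 12 months or WT replicate 3 at 12 months, and 37 without APP replicate 2 at 6 months. In TPM as deposited and not scaled, 0 genes passed.

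B2 RNA, a short interspersed repeat transcript cut into fragments under stress, is the subject of the short-RNA libraries. Their files give a count at each of 119 positions along the B2 element, in total 491, 693 and 1179 at 6 months and 1025, 690 and 1199 at 12 months. No source used here says what a count marks. The share of counts beyond position 20 was 80.0%, 85.7% and 67.3% at 6 months and 85.8%, 82.0% and 85.4% at 12 months. The 2 groups overlapped, with means of 77.7% ± 9.41 (SD, n = 3) and 84.4% ± 2.06 (SD, n = 3), a difference of 6.70 percentage points (two-sided exact permutation p = 0.30, of 0.10 as the smallest 3 against 3 can give). The Wilson 95% intervals of single libraries, which cover counting error only, ran from 64.6% to 70.0% in replicate 3 at 6 months and from 83.3% to 87.3% in replicate 3 at 12 months. Among the 34 positions averaging 10 counts or more, 1 (2.94%) was called by edgeR, position 16. It held 9, 10 and 179 counts at 6 months and 4, 8 and 9 at 12 months, so that 1 library at 6 months stood far above the other 5. The count of called positions was 0 without that library, 0 without replicate 1 or 3 at 12 months and 4 without replicate 2 at 6 months.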

How the data were processed

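Genome build and tools come from the submitters' processing notes, which name HISAT2 2.1.0, StringTie 1.3.4d, cutadapt 1.18 and GRCm38, without a role for each. Per the file headers, the authors deposited TPM, FPKM and Coverage (a signal of mean depth) per gene for each long-RNA library, and a whole-number count per B2 position for each short-RNA library. TPM was summed per gene identifier, kept where the mean over the 6 libraries was at least 1, divided by median-of-ratios factors and tested as log2(TPM + 1) with limma 3.58.1 (trend, robust) in 1 fit of all 17 mouse long-RNA libraries in 6 groups. FPKM and Coverage, as deposited by the authors, served only for relative depth. B2 counts were tested with edgeR 4.0.16 (quasi-likelihood, B2 total as library size), and the internal share by exact permutation. Scripts were tested on simulated data. Of 53975 gene identifiers, 53934 are in GENCODE M21.

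The libraries, gene lists and tests were chosen with earlier results of these data known. Named genes are the 5 protein-coding genes of lowest p in each direction, up to 4 genes of lowest p in a list, Hsf1, App, Xist and Ddx3y, and those called for APP against WT; others are said to be chosen afterwards. Nothing in the labels says that replicate numbers pair mice, and the main fits used no pairing. Deviations of same-numbered libraries correlated at -0.02, -0.08 and 0.05, within the -0.09 to 0.10 of other pairs. With 3 libraries a group, these values cannot decide whether same-numbered mice were handled together. HT-22 cell libraries were not used here. Alternatives covered scaling, pseudocount, filter, the libraries fitted, array weights, the replicate block and leaving out each library. A result on 1 withheld gene is not reported here.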

Additional observations from a re-analysis of the deposited data

Results flagged for a closer look

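Among genes passing the WT filter, the age difference of 5 entries differed between APP and WT mice (limma interaction test, adjusted p below 0.05). Rps27, a ribosomal protein of the small subunit, differed by 1.90 (95% interval 1.38 to 2.41), with -0.65 in WT and 1.25 in APP. Across all 93 ribosomal protein genes tested the median was -0.18 in WT and 0.40 in APP. The predicted small nucleolar RNA Gm24616 differed by 1.63, with -0.94 in WT and 0.69 in APP. The processed pseudogene Gm11878 differed by 1.03, Gm16418 by 1.70 and the transcribed pseudogene Gm10275 by 0.96. Cd9 (1.29, adjusted p = 0.0677), a tetraspanin, and Ctsd (1.47, adjusted p = 0.0947), a lysosomal protease, chosen after their values were seen, did not pass.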

How the results depend on the processing

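For the WT age difference, the count of called genes was 0 under every scaling, pseudocount, array weights, the replicate block in the 17-library fit, the stricter filter and the 8 WT libraries alone. It was 2 without a filter on low TPM and 1 in the 6 compared libraries alone, which became 0 with the replicate block added there. Leaving out 1 library gave 0 to 4 called genes. For APP against WT the count was 5, with 0 in TPM as deposited and not scaled, and 8 with the replicate block in the 17-library fit; leaving out 1 library gave 0 to 37. For B2 positions the count was 1, with 2 under TMM scaling, 2 at a mean count of at least 5, 2 without a filter and 0 with DESeq2; leaving out 1 library gave 0 to 4. The replicate block left it at 1. The B2 share difference kept its sign at 1.52 to 10.7 points without 1 library and was 6.70 points with the replicate block (exact permutation p = 0.50). The cause of these moves was not tested. Among single genes, without scaling the difference was 0.088 for Ddx3y, 0.23 for Gfap, 0.0145 for Dpysl3, 0.0674 for Cd9 and 0.12 for Ctsd, each with the opposite sign. For Gfap it was also 0.0668 under quantile normalisation, and it lay between -0.121 and 0.0636 without 1 library, above 0 without replicate 3 at 6 months or replicate 2 at 12 months. Precision is limited by 3 mice a group, and read numbers are unknown.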
